A study of Iris tectorum with 6 samples.

Results

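The transcripts described here are the aminoacyl-tRNA ligases and the initiation and elongation factors of protein synthesis in leaves of Iris tectorum, a rhizomatous iris. They were chosen by words in the description of each transcript's best protein hit (tRNA ligase, tRNA synthetase, translation initiation factor, translation elongation factor, and elongation factor 1, 2 or Tu), and only hits to Asparagus, Elaeis, Phoenix, Musa, Ananas, Dendrobium, Phalaenopsis or Iris were kept. No measured value entered the choice. The words and genera gave 338 unigenes, or assembled transcripts, out of 111791 with reads in at least 1 library. A further 119 unigenes carried the words with another hit and 2 with a green algal hit, and these were not members. Leaves came from plants grown in swine wastewater in a glasshouse, with a mean water depth of 12.3 cm (± 0.8), and this was shared by both groups. In the co-culture group the plants shared the wastewater with the microalga Dictyosphaerium sp. (3 libraries, replicates 1, 2 and 3), and in the plant alone group they did not (2 libraries, replicates 2 and 3). The library of replicate 1 in plant alone is not used here. Plant age and cultivar are not given in the labels. The labels do not say whether the replicates were separate plants or containers, so the p-values reflect only how much these samples vary among themselves. RNA was taken from leaf tissue in bulk, so fewer cells of a type and less RNA per cell cannot be told apart.

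Aminoacyl-tRNA ligases join each amino acid to its tRNA, and they supply the ribosome with charged tRNA. In plants the nuclear genome encodes the ligases of the cytosol, the chloroplast and the mitochondrion, and many organellar enzymes are imported into both organelles. Cytosolic initiation runs through the eukaryotic initiation factors (eIFs). The eIF4 group includes eIF4E, which binds the mRNA cap. Of the others, eIF2 brings the initiator tRNA, eIF2B recharges eIF2 with GTP, and eIF3 is a large scaffold on the small ribosomal subunit. Elongation factor 1-alpha (EF1A) delivers charged tRNA to the ribosome, EF1B subunits recharge EF1A, and EF2 moves the ribosome along the mRNA. Chloroplasts and mitochondria use bacterial-type factors such as IF-2.

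Of the 338 members, 93 were tRNA ligases named chloroplastic or mitochondrial and 84 were other tRNA ligases, most of them named cytoplasmic. The initiation factors comprised 47 unigenes of eIF2 and eIF2B (with eIF2A and eIF2D, which the words also took), 45 of eIF3, 28 of eIF4, 8 of a list made up of eIF1A (1), eIF5 (3) and eIF5B (4), 4 of organellar IF-2, and 15 whose description carried no number. The elongation factors comprised 1 EF1A, 7 EF1B and 2 EF2 unigenes. The words also took 4 unigenes of a transcription elongation factor, which acts on RNA polymerase, and 1 prolyl-tRNA synthetase associated domain protein, counted with the other ligases. No member was an elongation factor Tu, and none had its best hit in Iris. The most frequent genera of the hits were Elaeis (oil palm, 112), Asparagus (95) and Phoenix (date palm, 68).

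Member unigenes were 1331 bases long at the median, with a range of 200 to 5101. Contigs of 1 assembly cluster can share reads, and 246 members belonged to numbered clusters while 92 were single unigenes. In all, the 338 unigenes fell into 180 clusters or single entries, and 71 clusters held 2 or more members, at most 9. Where 1 cluster holds several contigs, the counts of each contig depend on how the authors' counting divided shared reads, so the values of such contigs are uncertain. The log2 fold change of the whole cluster is given beside each contig whose own fold change is printed.

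The libraries held 22912284, 22975621 and 20968769 expected counts (the read estimates that RSEM assigns to each unigene) in co-culture 1, 2 and 3, against 18881996 and 18616931 in plant alone 2 and 3. Levels are CPM, counts scaled to the library size as adjusted by edgeR's TMM method, and 3 counts corresponded to between 0.124 and 0.172 CPM in a library. Members took 0.886, 0.845 and 1.02% of the expected counts in co-culture 1, 2 and 3, against 0.776 and 0.997% in plant alone 2 and 3. Leaf markers differed widely between libraries of 1 group. The 5 unigenes of the rubisco small chain summed to 1100.0, 2706 and 128 FPKM in co-culture 1, 2 and 3, against 870.3 and 388 FPKM in plant alone 2 and 3 (read fragments per unit of length and of library size), and the 33 of chlorophyll a-b binding protein to 5982, 9257 and 1482 FPKM in co-culture 1, 2 and 3, against 2971 and 1715 FPKM in plant alone 2 and 3. The 6 unigenes of rubisco activase summed to 409, 2327 and 182 FPKM in co-culture 1, 2 and 3, against 247 and 163 FPKM in plant alone 2 and 3. All 3 of these leaf lists were highest in co-culture 2, and the small chain and chlorophyll a-b lists were lowest in co-culture 3. The root marker casparian strip membrane protein (3 unigenes) summed to at most 3.67 FPKM in any library. EdgeR put the biological coefficient of variation at 0.773.

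The comparison asked which translation transcripts had other levels when the alga was present. More members stood above 0 than below 0 in co-culture. The filter on low counts left 296 of the 338 members (87.6%), of which 181 had a log2 fold change above 0 and 115 below 0, so that 61.1% were above 0 against 50.1% of all 69984 unigenes tested. Their median log2 fold change, co-culture over plant alone, was 0.16, against 0.001 for all unigenes, and it was 0.18 over all 338 members with no filter. Relative to the mean of the plant alone libraries, the median member stood at 0.12, 0.28 and 0.047 in co-culture 1, 2 and 3 on the log2 scale, against -0.055 and 0.055 in plant alone 2 and 3. Thus the shift in co-culture 3 was no larger than the distance of plant alone 3 from its own group's mean. Without plant alone 3 the median of the members was 0.36 (327 tested) and that of all unigenes 0.13 (82136 tested). Without plant alone 2 the members' median was 0.23 (322 tested) and that of all unigenes 0.18 (81658 tested), so the members then stood little above the rest. All 338 members summed to 9043, 9600 and 8806 CPM in co-culture 1, 2 and 3, against 7664 and 10648 CPM in plant alone 2 and 3, which overlapped.

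No member passed edgeR's quasi-likelihood test with Benjamini-Hochberg adjustment over all unigenes at 0.05, nor did any other unigene (0.0% of 69984), and the smallest adjusted p was 0.628. At an unadjusted edgeR p under 0.05 there were 9 members higher in co-culture (background 2.75% of all unigenes) and 3 lower (background 4.45%). The alternative test, DESeq2, called 5 members higher (background 0.899%) and 1 lower (background 0.977%), and it gave no adjusted p for 3. All co-culture libraries lay above all plant alone libraries for 51 members, or 17.2% of those tested, against 12.8% of all unigenes. They lay below for 29 members, or 9.8%, against 17.2% of all unigenes. Summed per cluster, 163 of the 180 entries were tested, of which 108 were above 0 (background 49.5%) and 55 below, with a median of 0.14. No cluster sum passed the edgeR test (0.0% of 44464), and 5 were higher (background 3.06%) and 2 lower (background 6.34%) at an unadjusted p under 0.05. DESeq2 called 1 cluster entry of the members higher (background 0.549%), a single unigene of eIF4G (Unigene264_zju), and 1 lower (background 1.28%), the EF1-delta unigene described further on.

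**Figure D1:**
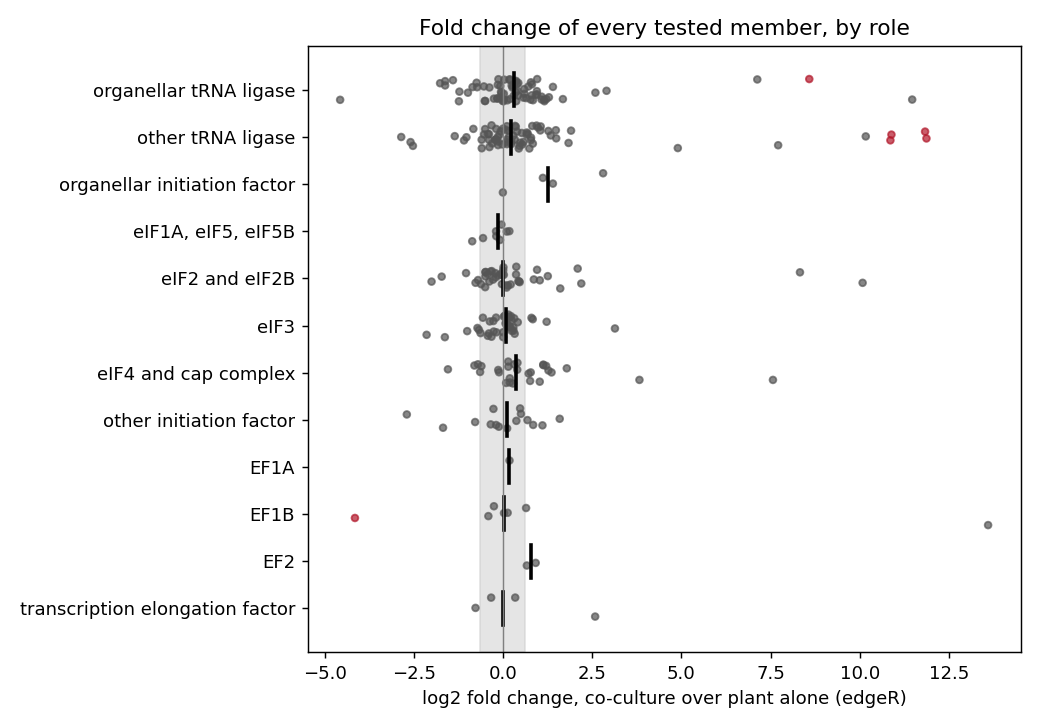
Log2 fold change of every tested member (points, edgeR, co-culture over plant alone; x axis) by role (rows). Black bars mark role medians, red points the 6 members called by DESeq2, and the grey band the range from the lower to the upper quartile of all tested unigenes; most members sit inside or near that band, and the medians of the organellar initiation factors (1.26, or 0.52 without co-culture 2) and of EF2 (0.79, or 0.48 without plant alone 2) sit to its right with all libraries.

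The role medians differed in size and sign. The ligases as a whole had a median log2 fold change of 0.28 (92 members above 0 and 53 below, of 145 tested), against 0.10 for the initiation factors (80 above and 57 below, of 137) and 0.15 for the translation elongation factors (7 above and 3 below, of 10). Among the initiation factors, eIF4 had a median of 0.35, while eIF3 (0.08) and eIF2 with eIF2B (-0.009) lay near 0 and the list of eIF1A, eIF5 and eIF5B lay at -0.14. Without plant alone 2 that last median was -0.39, without co-culture 2 it was -0.032, and without plant alone 3 it was 0.11, the opposite sign. The difference between roles was not tested. No role list held a member past the edgeR threshold.

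**Figure D2:**
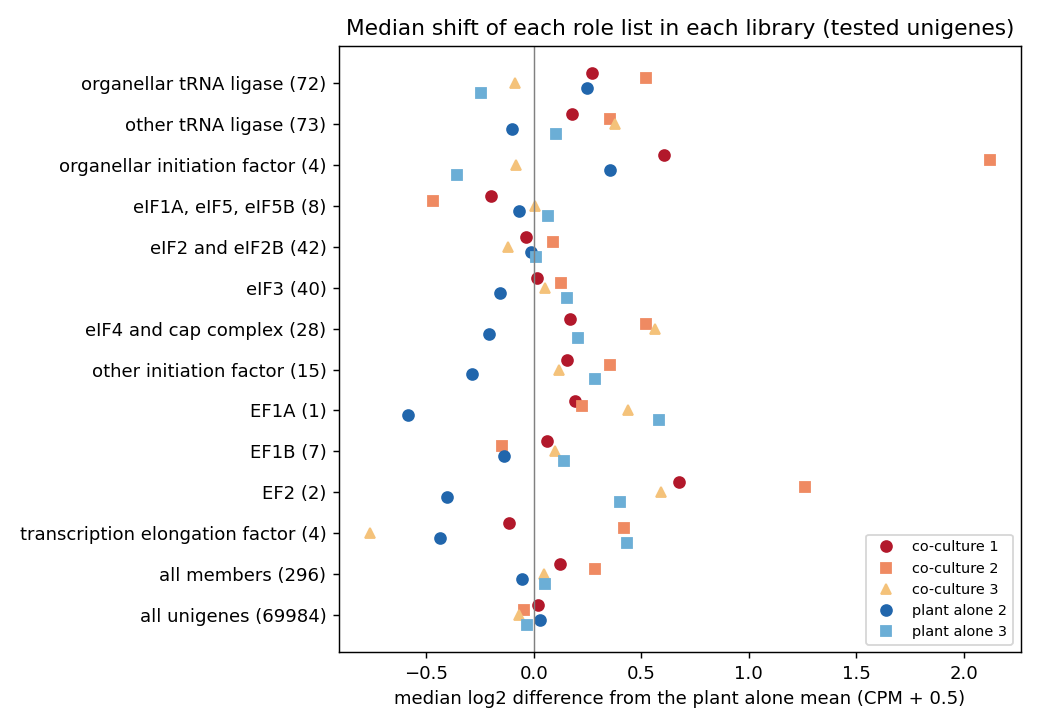
Median log2 difference of each role list from the plant alone mean (x axis, CPM + 0.5) in each of the 5 libraries (colours and symbols), with the number of tested unigenes in brackets. Organellar initiation factors and organellar ligases reach their highest median in co-culture 2 (2.12 and 0.52) and lie slightly below 0 in co-culture 3 (-0.084 and -0.088), whereas eIF4 is above 0 in all 3 co-culture libraries (0.17, 0.52 and 0.57). The eIF4 median of plant alone 3 (0.21) lies above that of co-culture 1, so the groups overlap.

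In levels per transcript length, elongation and early initiation factors were the most abundant members. EF1A (CL7602.Contig1_zju) averaged 635 ± 147 FPKM in co-culture (SD, n = 3) and 532 ± 263 FPKM in plant alone (SD, n = 2). Close to it was eIF1A (Unigene17489_zju), which helps the small subunit scan for the start codon, with 539 ± 36.0 FPKM in co-culture (SD, n = 3) and 607 ± 10.6 FPKM in plant alone (SD, n = 2). Across the 5 libraries the FPKM ranges of EF1A and eIF1A overlapped, so their order is not separated. Within eIF1A the co-culture libraries lay below both plant alone libraries in FPKM and overlapped them in CPM. Next came EF1-gamma (CL10463.Contig2_zju), with 317, 249 and 237 FPKM in co-culture 1, 2 and 3, against 249 and 373 FPKM in plant alone 2 and 3, and EF1-beta (CL7505.Contig1_zju), with 278, 144 and 195 FPKM in co-culture 1, 2 and 3, against 305 and 229 FPKM in plant alone 2 and 3. An initiation factor without a number, annotated by KEGG as the cap-binding protein eIF4E (CL15717.Contig1_zju), had 216, 174 and 129 FPKM in co-culture 1, 2 and 3, against 161 and 271 FPKM in plant alone 2 and 3. The transcription elongation factor contig CL9553.Contig4_zju, which is no translation factor, reached 627, 327 and 685 FPKM in co-culture 1, 2 and 3, against 632 and 1123 FPKM in plant alone 2 and 3.

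Ligase transcripts were each far less abundant. The methionine ligase with the highest level (Unigene17855_zju, annotated by KEGG as a multifunctional protein that binds the ligase complex) had 79.0, 50.7 and 62.6 FPKM in co-culture 1, 2 and 3, against 57.8 and 84.9 FPKM in plant alone 2 and 3. The alanine ligase Unigene6387_zju had 54.2, 50.2 and 71.2 FPKM in co-culture 1, 2 and 3, against 19.1 and 55.1 FPKM in plant alone 2 and 3. Among organellar ligases, the glycine enzyme CL1596.Contig1_zju had 41.5, 25.8 and 35.6 FPKM in co-culture 1, 2 and 3, against 35.7 and 38.3 FPKM in plant alone 2 and 3, and the threonine enzyme CL3337.Contig6_zju had 33.5, 23.7 and 35.2 FPKM in co-culture 1, 2 and 3, against 24.0 and 41.1 FPKM in plant alone 2 and 3, both named mitochondrial. Summed over their members, ligases reached 1315, 1337 and 1486 FPKM in co-culture 1, 2 and 3, against 1126 and 1254 FPKM in plant alone 2 and 3. Initiation factors reached 2177, 2301 and 2495 FPKM in co-culture 1, 2 and 3, against 2159 and 2439.6 FPKM in plant alone 2 and 3, and translation elongation factors 1434, 1314 and 1609 FPKM in co-culture 1, 2 and 3, against 1105 and 1566 FPKM in plant alone 2 and 3. The co-culture and plant alone libraries overlapped in each of these 3 FPKM sums except that of the ligases, whose lowest co-culture value (co-culture 1) lay above both plant alone values; the CPM sums of the ligases overlapped.

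**Figure D3:**
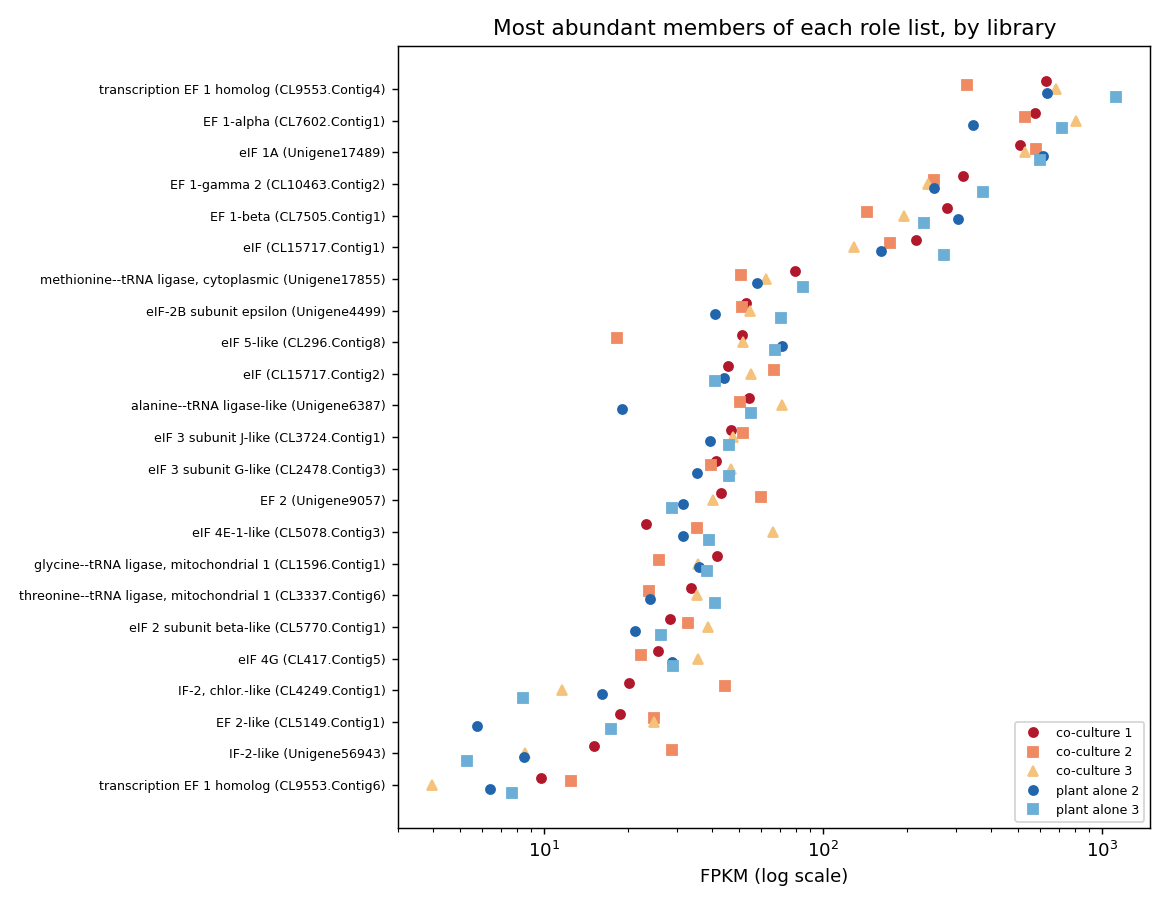
FPKM (x axis, log scale) of the most abundant members of each role list (rows, up to 2 per list) in the 5 libraries (colours and symbols). EF1A, eIF1A and the transcription elongation factor contig sit at the top, with means over the 5 libraries of 594, 566 and 679 FPKM, and single ligases at means of 67.0 FPKM or less.

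The ligases named chloroplastic or mitochondrial were highest in co-culture 2. Of 93 such unigenes 72 were tested, with 47 above 0 and 25 below 0 and a median of 0.29. Without plant alone 2 that median was 0.73, and without co-culture 2 it was 0.14. Their members summed to 958, 1236 and 791 CPM in co-culture 1, 2 and 3, against 777 and 829 CPM in plant alone 2 and 3. Added up by amino acid, the 17 organellar enzymes had a higher mean in co-culture for 15. Co-culture 2 was the highest of all 5 libraries for 13 enzymes, and co-culture 3 was the lowest of the co-culture libraries for 14. For 1 of the 17, histidine, all co-culture sums lay above all plant alone sums (5.88%, against 12.9% of all cluster sums), with 38.4, 50.3 and 29.9 CPM in co-culture 1, 2 and 3, against 27.7 and 26.4 CPM in plant alone 2 and 3.

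Several of these enzymes showed this order in single unigenes. The isoleucine ligase Unigene16579_zju, named chloroplastic and mitochondrial, had 41.3, 89.1 and 22.6 CPM in co-culture 1, 2 and 3, against 25.5 and 20.2 CPM in plant alone 2 and 3. The phenylalanine ligase contig CL4103.Contig1_zju, of a cluster also named for both organelles, had 25.1, 74.1 and 14.2 CPM in co-culture 1, 2 and 3, against 17.4 and 13.6 CPM in plant alone 2 and 3. Both were chosen after their values were seen, and in both the co-culture 2 value stood above the other 4 libraries while co-culture 3 lay within or near the plant alone range. The asparagine ligase contig CL13591.Contig4_zju, named chloroplastic and mitochondrial, had 16.1, 23.8 and 11.3 CPM in co-culture 1, 2 and 3, against 7.27 and 8.89 CPM in plant alone 2 and 3, with groups that did not overlap. On the log2 scale its fold change was 1.08 ± 0.44 (edgeR adjusted p = 0.628), and its cluster of 4 contigs came to a log2 fold change of 0.39. At the low end, the summed glutamate ligase of the organelles had 11.1, 15.7 and 17.3 CPM in co-culture 1, 2 and 3, against 22.7 and 14.3 CPM in plant alone 2 and 3.

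Dividing the organellar ligases by name, a split made after the values were seen, set apart 70 unigenes with chloroplast in their name from 23 named mitochondrial alone. The latter were glycine, threonine and valine ligases, and the list of other ligases held none for these amino acids. Their names therefore do not settle whether they also serve the cytosol. Many of the 70 were named chloroplastic and mitochondrial, so the split does not set chloroplast enzymes against mitochondrial ones. The 70 with chloroplast in their name summed to 539.0, 836.3 and 398.4 CPM in co-culture 1, 2 and 3, against 441.1 and 370.9 CPM in plant alone 2 and 3. Co-culture 2 was the highest library for 15 of their 17 enzymes. Those named mitochondrial alone summed to 419.3, 399.8 and 392.8 CPM in co-culture 1, 2 and 3, against 336.2 and 458.4 CPM in plant alone 2 and 3. Co-culture 2 was the highest library for 1 of their 3 enzymes. The sums of the ligases with chloroplast in their name followed the order of the leaf markers within the co-culture group. There rubisco small chain was 2706 FPKM in co-culture 2 and 128 FPKM in co-culture 3. The part of the leaf marker level in these ligase values was not tested.

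The organellar initiation factor IF-2, which brings the first tRNA to bacterial-type ribosomes, varied widely between libraries. The chloroplastic contig CL4249.Contig1_zju had 81.7, 200.3 and 39.7 CPM in co-culture 1, 2 and 3, against 63.2 and 35.8 CPM in plant alone 2 and 3. The log2 fold change came to 1.12 ± 0.76 (edgeR adjusted p = 0.714), and that of its cluster was 1.18. An IF-2-like unigene (Unigene56943_zju) had 18.5, 39.1 and 8.82 CPM in co-culture 1, 2 and 3, against 10.04 and 6.77 CPM in plant alone 2 and 3, with a log2 fold change of 1.40 ± 0.71 (edgeR adjusted p = 0.638). In both, co-culture 2 was highest, co-culture 3 was the lowest of its group, and the groups overlapped. The other IF-2 unigenes had lower levels, at 0.891, 9.39 and 2.14 CPM in co-culture 1, 2 and 3, against 0.941 and 0.229 CPM in plant alone 2 and 3 for CL4249.Contig3_zju and 2.67, 5.98 and 1.94 CPM in co-culture 1, 2 and 3, against 4.39 and 2.69 CPM in plant alone 2 and 3 for Unigene59708_zju. For 3 of the 4 unigenes the co-culture libraries stood in the order of the leaf markers, highest in co-culture 2 and lowest in co-culture 3, while CL4249.Contig3_zju was lowest in co-culture 1. The part of the leaf marker level in the IF-2 values was not tested. The median of the 4 was 1.26, and without co-culture 2 it was 0.52.

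**Figure D4:**
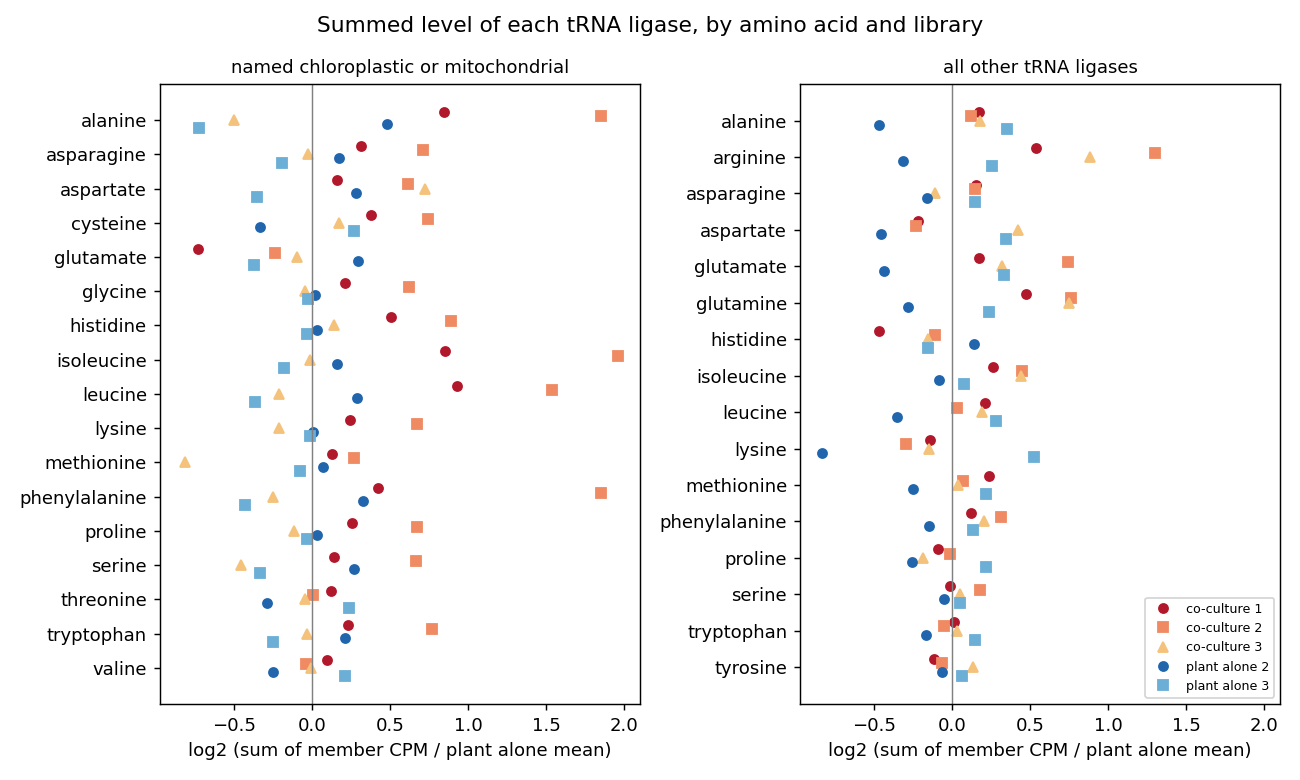
Summed CPM of each tRNA ligase relative to the plant alone mean (x axis, log2) by amino acid (rows) and library (colours and symbols), for enzymes named chloroplastic or mitochondrial (left, 17 enzymes) and all others (right, 16 enzymes). On the left co-culture 2 is the rightmost point for 13 enzymes; on the right it is so for 6, and plant alone 3 lies above plant alone 2 for 15 of 16.

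The other tRNA ligases, chiefly those of the cytosol, had a median log2 fold change of 0.23 (45 above 0 and 28 below, of 73 tested). Without plant alone 3 it was 0.48, and without co-culture 3 it was 0.15. They summed to 1680.0, 1749 and 1729 CPM in co-culture 1, 2 and 3, against 1327 and 1882 CPM in plant alone 2 and 3, so the plant alone libraries were the extremes on both sides. Plant alone 3 lay above plant alone 2 in 15 of the 16 enzyme sums. The reverse held for the enzymes named chloroplastic or mitochondrial, where plant alone 2 lay above plant alone 3 in 14 of 17.

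For 3 of the 16 enzyme sums (18.8%, against 12.9% of all cluster sums) all co-culture libraries lay above both plant alone libraries. The arginine ligase is a single member contig (CL6695.Contig3_zju) with 33.8, 57.2 and 42.8 CPM in co-culture 1, 2 and 3, against 18.7 and 27.8 CPM in plant alone 2 and 3. On the log2 scale its fold change was 0.94 ± 0.37 (edgeR adjusted p = 0.628), and that of its cluster was 0.47. The glutamine ligase summed to 58.8, 71.8 and 71.2 CPM in co-culture 1, 2 and 3, against 34.8 and 50.0 CPM in plant alone 2 and 3. The cytoplasmic isoleucine ligase summed to 45.2, 51.2 and 51.0 CPM in co-culture 1, 2 and 3, against 35.5 and 39.7 CPM in plant alone 2 and 3, and its contig CL14462.Contig1_zju had 28.4, 36.7 and 35.3 CPM in co-culture 1, 2 and 3, against 12.4 and 21.6 CPM in plant alone 2 and 3. That contig had a log2 fold change of 0.98 ± 0.36 (edgeR adjusted p = 0.628), and its cluster one of 0.40. In the other direction, a proline ligase contig (CL12018.Contig1_zju) had 68.8, 71.4 and 54.3 CPM in co-culture 1, 2 and 3, against 85.4 and 98.5 CPM in plant alone 2 and 3, with a log2 fold change of -0.50 ± 0.27 (edgeR adjusted p = 0.654), while its cluster came to -0.086. With 3 against 2 libraries the smallest two-sided exact permutation p is 0.1, so no p is given for the sums. Of all 72 enzyme and factor sums, 5 did not overlap upward and 3 downward, and the share of all cluster sums that did not overlap downward was 18.2%.

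The 5 members that DESeq2 called higher were single contigs of ligase clusters, and each had no reads in either plant alone library. A contig of the cytoplasmic leucine ligase (CL5428.Contig3_zju) had 18.3, 33.5 and 14.4 CPM in co-culture 1, 2 and 3, against 0 in both plant alone libraries, at least 268-fold higher against a floor of 3 counts over the plant alone group (DESeq2 adjusted p = 1.29e-08, edgeR adjusted p = 0.628). Its cluster of 7 contigs, all members, summed to 127, 112 and 125 CPM in co-culture 1, 2 and 3, against 85.4 and 132 CPM in plant alone 2 and 3, a log2 fold change of 0.16. Within that cluster CL5428.Contig2_zju had 0, 0 and 9.98 CPM in co-culture 1, 2 and 3, against 10.3 and 30.0 CPM in plant alone 2 and 3. A contig of the cytoplasmic histidine ligase (CL2528.Contig7_zju) had 15.3, 18.5 and 0.577 CPM in co-culture 1, 2 and 3, against 0 in both plant alone libraries, at least 139-fold higher (DESeq2 adjusted p = 0.000621, edgeR adjusted p = 0.628). In the same cluster CL2528.Contig5_zju had 2.41, 1.09 and 17.0 CPM in co-culture 1, 2 and 3, against 68.6 and 30.7 CPM in plant alone 2 and 3, and the cluster summed to 64.2, 82.7 and 79.7 CPM in co-culture 1, 2 and 3, against 97.9 and 79.4 CPM in plant alone 2 and 3, a log2 fold change of -0.23. The pooled plant alone value of CL2528.Contig7_zju in the authors' deposited table was 531 expected counts, so plant alone reads that were not analysed here did include this contig, and the bound holds for plant alone 2 and 3 alone. The pooled co-culture value was 732, with a log2 ratio of 0.30, and the contig was marked neither up nor down there.

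For the cytoplasmic aspartate and tyrosine ligases the called contigs were found in co-culture 2 and 3 but not in co-culture 1. The aspartate contig CL10037.Contig3_zju had 0, 18.8 and 49.1 CPM in co-culture 1, 2 and 3, against 0 in both plant alone libraries, at least 276-fold higher (DESeq2 adjusted p = 0.0259). Its cluster summed to 64.8, 57.6 and 90.4 CPM in co-culture 1, 2 and 3, against 70.0 and 90.2 CPM in plant alone 2 and 3, and the contig held 32.6 and 54.2% of the cluster's counts in co-culture 2 and 3. The sister contig CL10037.Contig2_zju had 44.4, 11.5 and 0 CPM in co-culture 1, 2 and 3, against 22.3 and 57.3 CPM in plant alone 2 and 3. The tyrosine contig CL1808.Contig4_zju had 0, 14.7 and 19.0 CPM in co-culture 1, 2 and 3, against 0 in both plant alone libraries, at least 136-fold higher (DESeq2 adjusted p = 0.0465), and its cluster summed to 37.5, 38.9 and 44.4 CPM in co-culture 1, 2 and 3, against 38.7 and 42.0 CPM in plant alone 2 and 3. Its neighbour CL1808.Contig2_zju had 20.0, 12.9 and 0 CPM in co-culture 1, 2 and 3, against 22.5 and 22.1 CPM in plant alone 2 and 3. In both clusters the contig sums of co-culture and plant alone overlapped, with log2 fold changes of -0.17 and -0.002. DESeq2 no longer called these 2 contigs without co-culture 2, without co-culture 3 or without either plant alone library.

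The threonine ligase CL3279, named chloroplastic and mitochondrial, differed in that its cluster sum was also higher in every co-culture library. The called contig CL3279.Contig5_zju had 3.74, 1.68 and 1.53 CPM in co-culture 1, 2 and 3, against 0 in both plant alone libraries, at least 28.2-fold higher (DESeq2 adjusted p = 0.0012, edgeR adjusted p = 0.628). Its cluster of 7 contigs summed to 18.4, 26.1 and 11.0 CPM in co-culture 1, 2 and 3, against 10.6 and 4.15 CPM in plant alone 2 and 3, with a log2 fold change of 1.32. In the authors' deposited table its pooled plant alone value was 33.8 expected counts, so this bound too holds for plant alone 2 and 3 alone. The leucine, histidine and threonine contigs stayed called by DESeq2 in each fit that left out 1 co-culture library. No fit held the plant alone reads that were not analysed here, in which the histidine and threonine contigs were present. For the called leucine, aspartate and tyrosine contigs the pooled plant alone value in the authors' deposited table was 0.

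Of 65 clusters with 2 or more tested members, 4 (6.15%) held a contig above and another below the other group's libraries, namely asparagine CL13591, isoleucine CL14462, histidine CL2528 and leucine CL5428. The share among all 11828 such clusters was 9.28%. Among the tested members 13 were listed at 0 in both plant alone libraries, against 2.18% of all unigenes, and none was listed at 0 in all 3 co-culture libraries (0.157% of all unigenes). Since a group of 2 libraries is at 0 more readily than a group of 3, these counts cannot be set against each other.

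**Figure D5:**
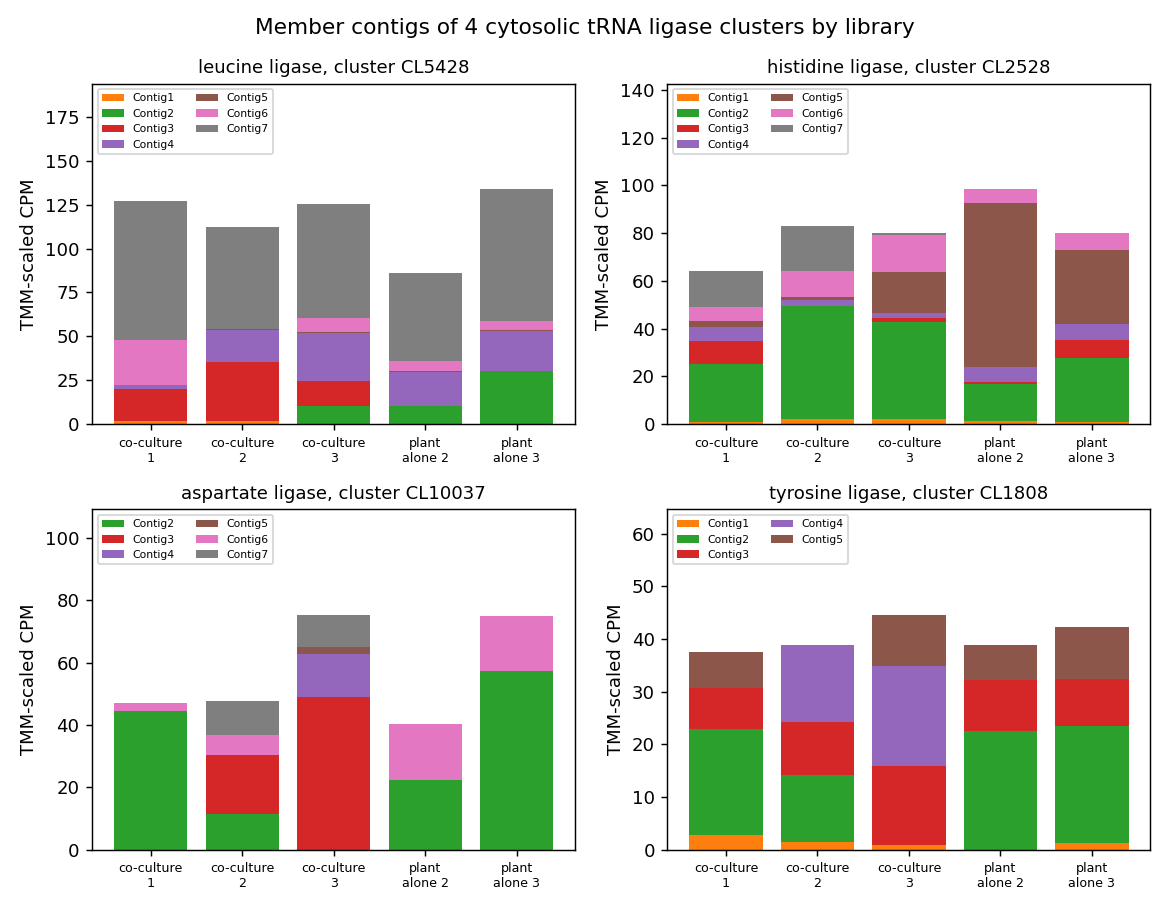
TMM-scaled CPM (y axis) of the member contigs (colours, stacked) of 4 cytoplasmic tRNA ligase clusters in each library (bars). The stack heights overlap between co-culture and plant alone in the leucine, histidine, aspartate and tyrosine panels, while the makeup of the stacks differs; Contig3 of CL5428, Contig7 of CL2528, Contig3 of CL10037 and Contig4 of CL1808 are absent from both plant alone bars.

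Among the lists of cytosolic initiation factors the eIF4 list, mostly eIF4G and eIF4B, had the highest median. In it 21 of 28 tested members had a log2 fold change above 0 and 7 below 0. Without plant alone 2 its median was 0.20. All co-culture libraries lay above plant alone for 8 of them (28.6%, against 12.8% of all unigenes) and below for 1. The list summed to 275, 371 and 347 CPM in co-culture 1, 2 and 3, against 254 and 312 CPM in plant alone 2 and 3, which overlapped. The scaffold eIF4G accounted for 15 of the 28, of which 11 were above 0, and its members summed to 154, 176 and 202 CPM in co-culture 1, 2 and 3, against 136 and 169 CPM in plant alone 2 and 3. The most abundant eIF4G contig (CL417.Contig5_zju) had 64.4, 62.4 and 76.1 CPM in co-culture 1, 2 and 3, against 69.9 and 76.4 CPM in plant alone 2 and 3, with a log2 fold change of -0.11 ± 0.26, and its cluster came to -0.04. A less abundant eIF4G contig (CL2583.Contig1_zju), chosen after its values were seen, had 14.1, 21.9 and 23.6 CPM in co-culture 1, 2 and 3, against 5.33 and 12.8 CPM in plant alone 2 and 3, with a log2 fold change of 1.13 ± 0.52 (edgeR adjusted p = 0.628), and its cluster came to 1.15. The single unigene Unigene264_zju, also an eIF4G and called as a cluster entry, had 0.802, 2.82 and 3.75 CPM in co-culture 1, 2 and 3, against 0.0523 and 0.287 CPM in plant alone 2 and 3, with a DESeq2 adjusted p of 0.0661 in the fit of single unigenes. The eIF4G-like unigenes without a number in their name (9, by KEGG) summed to 242, 271 and 229 CPM in co-culture 1, 2 and 3, against 179 and 250.2 CPM in plant alone 2 and 3.

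The eIF4B proteins, which aid the helicase that opens the mRNA, comprised 10 unigenes, 8 of them above 0, and summed to 91.2, 154 and 102 CPM in co-culture 1, 2 and 3, against 79.4 and 97.1 CPM in plant alone 2 and 3. The cap-binding eIF4E was named in 3 unigenes, which differed among themselves. They summed to 29.5, 41.6 and 43.3 CPM in co-culture 1, 2 and 3, against 39.0 and 46.3 CPM in plant alone 2 and 3. The contig CL5078.Contig3_zju had 13.5, 22.9 and 32.7 CPM in co-culture 1, 2 and 3, against 17.8 and 23.9 CPM in plant alone 2 and 3, whereas Unigene5237_zju had 13.5, 16.2 and 9.57 CPM in co-culture 1, 2 and 3, against 20.0 and 19.8 CPM in plant alone 2 and 3, with non-overlapping groups and a log2 fold change of -0.61 ± 0.34 (edgeR adjusted p = 0.662). The plant cap-binding variant nCBP (CL4738.Contig2_zju) had 40.6, 23.8 and 28.9 CPM in co-culture 1, 2 and 3, against 37.8 and 69.4 CPM in plant alone 2 and 3, with a log2 fold change of -0.78 ± 0.40 (edgeR adjusted p = 0.642), and its cluster came to -0.49. The nCBP libraries overlapped, and plant alone 3 was the highest. All 3 nCBP unigenes were below 0, and they were counted with the unnumbered factors, not with eIF4. They summed to 48.0, 28.5 and 38.6 CPM in co-culture 1, 2 and 3, against 44.9 and 86.1 CPM in plant alone 2 and 3. The 3 unnumbered unigenes that KEGG annotated as eIF4E summed to 263, 271 and 164 CPM in co-culture 1, 2 and 3, against 205 and 325 CPM in plant alone 2 and 3.

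The eIF3 subunits had a median near 0. Of 40 tested members 25 were above 0 and 15 below, with a median of 0.08, and the groups overlapped for all 12 subunit sums. The 2 members with the highest mean FPKM were contigs of subunits J and G. Subunit J (CL3724.Contig1_zju) had 59.6, 73.4 and 51.7 CPM in co-culture 1, 2 and 3, against 48.8 and 61.5 CPM in plant alone 2 and 3. Subunit G (CL2478.Contig3_zju) had 45.8, 49.0 and 43.9 CPM in co-culture 1, 2 and 3, against 37.8 and 53.4 CPM in plant alone 2 and 3. Their log2 fold changes were 0.16 ± 0.30 and 0.021 ± 0.28, and those of their clusters 0.09 and 0.10. Without plant alone 2 the median of the eIF3 list was -0.007, and without plant alone 3 it was 0.23.

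The eIF2 and eIF2B unigenes were evenly divided, with 21 above 0 and 21 below of 42 tested, and all 8 subunit sums of eIF2 and eIF2B overlapped. The eIF2B epsilon subunit (Unigene4499_zju), the catalytic part of the exchange factor, had 169, 182 and 149 CPM in co-culture 1, 2 and 3, against 127 and 238 CPM in plant alone 2 and 3. The eIF2 beta contig CL5770.Contig1_zju had 34.4, 44.5 and 39.9 CPM in co-culture 1, 2 and 3, against 25.1 and 33.8 CPM in plant alone 2 and 3, with a log2 fold change of 0.43 ± 0.29 (edgeR adjusted p = 0.714), and its cluster came to 0.43. The eIF2 gamma contig CL5759.Contig1_zju had 45.4, 41.3 and 36.9 CPM in co-culture 1, 2 and 3, against 45.0 and 89.1 CPM in plant alone 2 and 3, with a log2 fold change of -0.70 ± 0.37 (edgeR adjusted p = 0.648), and its cluster came to -0.062. In the gamma contig the groups overlapped, and plant alone 3 alone stood high. For eIF2D, a factor able to bring tRNA to the ribosome without eIF2, CL5591.Contig1_zju had 9.44, 6.97 and 6.52 CPM in co-culture 1, 2 and 3, against 9.67 and 13.8 CPM in plant alone 2 and 3, while the cluster's log2 fold change had the opposite sign, at 0.29. Without co-culture 2 the median of the eIF2 and eIF2B list was -0.17.

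The factor eIF5, which triggers GTP hydrolysis by eIF2 at the start codon, was the initiation factor whose CPM sum lay lower in every co-culture library. Its 3 member contigs summed to 505, 328 and 591 CPM in co-culture 1, 2 and 3, against 640.2 and 625 CPM in plant alone 2 and 3. In FPKM the groups overlapped, with sums of 118, 68.5 and 162 in co-culture 1, 2 and 3, against 155 and 140 in plant alone 2 and 3. The contig CL296.Contig8_zju had 211, 84.2 and 181 CPM in co-culture 1, 2 and 3, against 286 and 293 CPM in plant alone 2 and 3, with a log2 fold change of -0.87 ± 0.46 (edgeR adjusted p = 0.65). By contrast CL296.Contig6_zju of the same cluster had 206, 182 and 289 CPM in co-culture 1, 2 and 3, against 216 and 204 CPM in plant alone 2 and 3, and the whole cluster of 16 contigs had a log2 fold change of -0.36. For eIF1A the values were 423, 536 and 374 CPM in co-culture 1, 2 and 3, against 495 and 523 CPM in plant alone 2 and 3, which overlapped.

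Among the elongation factors EF2 was the group whose unigenes were both higher in every co-culture library. Unigene9057_zju had 53.2, 82.6 and 42.2 CPM in co-culture 1, 2 and 3, against 37.7 and 37.1 CPM in plant alone 2 and 3, with a log2 fold change of 0.67 ± 0.38 (edgeR adjusted p = 0.663). The EF2-like contig CL5149.Contig1_zju had 17.5, 25.8 and 19.7 CPM in co-culture 1, 2 and 3, against 5.18 and 17.1 CPM in plant alone 2 and 3, and there plant alone 3 reached almost the level of co-culture 1. That contig held only a small part of its cluster. The whole cluster summed to 487, 551 and 556 CPM in co-culture 1, 2 and 3, against 342 and 561 CPM in plant alone 2 and 3. The cluster's groups overlapped, with plant alone 3 the highest, and its log2 fold change was 0.23. The median of the EF2 pair was 0.79, and leaving out plant alone 2 gave 0.48, while leaving out plant alone 3 gave 1.36. EF1A had 1086, 1111 and 1287 CPM in co-culture 1, 2 and 3, against 632 and 1424 CPM in plant alone 2 and 3, so its lowest and its highest library were both plant alone. On the log2 scale its fold change was 0.18 ± 0.50 (edgeR adjusted p = 0.943) and that of its cluster 0.019. The contig's value was -0.30 when plant alone 2 was left out and 0.90 when plant alone 3 was.

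The EF1B unigenes, which encode the exchange factor of EF1A, held the member with the highest bound on its fold and the 1 member that DESeq2 called lower. The EF1-beta contig CL7505.Contig5_zju had 0, 152 and 73.5 CPM in co-culture 1, 2 and 3, against 0 in both plant alone libraries, at least 915-fold higher (edgeR adjusted p = 0.628, DESeq2 adjusted p = 0.107), so it passed neither threshold. Its pooled plant alone value in the authors' deposited table was 0. Its cluster came to a log2 fold change of 0.10. The other member of that cluster, CL7505.Contig1_zju, had 342, 197 and 203 CPM in co-culture 1, 2 and 3, against 363 and 295 CPM in plant alone 2 and 3. The called unigene, an EF1-delta-like fragment of 311 bases whose hit is from the orchid Phalaenopsis (Unigene39747_zju), had 0.0891, 0.0989 and 0.206 CPM in co-culture 1, 2 and 3, against 2.51 and 2.41 CPM in plant alone 2 and 3. On the log2 scale its fold change was -4.16 ± 0.69 (DESeq2 adjusted p = 0.000642, edgeR adjusted p = 0.628). It was called lower in each of the 5 DESeq2 fits that left out 1 library. EF1-gamma summed to 886, 826 and 672 CPM in co-culture 1, 2 and 3, against 679 and 1022 CPM in plant alone 2 and 3, with overlapping groups.

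The spread within co-culture was wide for the members as a whole. Over the 183 members with a mean of at least 5 CPM, the highest co-culture value came from co-culture 2 in 94, from co-culture 3 in 51 and from co-culture 1 in 38. The lowest came from co-culture 3 in 76, from co-culture 1 in 67 and from co-culture 2 in 40. The median range between the lowest and highest co-culture library was 0.75 on the log2 scale, against 0.45 between the plant alone libraries, which are fewer.

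Other transcripts of the pathway, 134 unigenes of the same genera taken by a list of words, included peptide chain release factors, which end translation, unigenes named poly(A)-binding protein, and proteins named as interacting with poly(A)-binding protein. Poly(A)-binding proteins hold the tail of the mRNA, but the list also took unigenes named RBP45 and RBP47, whose role the name does not settle. The words also took 1 Ran guanine nucleotide release factor, which has no part in ending translation. Of 111 tested, 65 were above 0 and 46 below, with a median of 0.091. The 34 tested poly(A)-binding unigenes had a median of -0.088, the 30 tested interacting proteins 0.28, the 23 tested peptide chain release factors 0.17, the 4 tested ribosome recycling factors 0.55 and the 3 tested TOR kinase unigenes 0.44. The 3 tested elongation factor G unigenes had 0.46, the 2 of elongation factor Ts -0.97 and the 1 of elongation factor P 0.016. The 3 tested GCN1 or GCN2 unigenes had -0.013, the 7 other tRNA-handling unigenes 0.28 and the Ran factor -0.275. The recycling factors summed to 20.8, 42.9 and 7.13 CPM in co-culture 1, 2 and 3, against 14.4 and 11.9 CPM in plant alone 2 and 3, which overlapped. DESeq2 called none of the 111 higher (background 0.899%) and 1 lower (background 0.977%), and edgeR called none, with 2 higher (1.8%, background 2.75%) and 6 lower (5.41%, background 4.45%) at an unadjusted p under 0.05. The called unigene was a release factor contig of the eRF3 family (CL7005.Contig4_zju), with 0.624, 0.445 and 0.206 CPM in co-culture 1, 2 and 3, against 21.4 and 5.22 CPM in plant alone 2 and 3. In the same cluster CL7005.Contig5_zju had 32.4, 57.6 and 40.6 CPM in co-culture 1, 2 and 3, against 16.9 and 33.9 CPM in plant alone 2 and 3. For CL7005.Contig3_zju the values were 9.98, 21.8 and 0 CPM in co-culture 1, 2 and 3, against 23.8 and 13.1 CPM in plant alone 2 and 3. Both overlapped, so the called contig alone does not give the level of eRF3.

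The 119 unigenes with the same words and other hits had a median log2 fold change of -0.075 (87 tested, 41 above 0 and 46 below). The 2 with green algal hits summed to 0.802, 0.445 and 0.907 CPM in co-culture 1, 2 and 3, against 0.0523 and 15.0 CPM in plant alone 2 and 3, so they were not higher in the co-culture group. In the authors' deposited table, whose plant alone column pools reads beyond the libraries analysed here, 85 of the 338 members were marked up, 32 down and 221 neither. That table gives counts pooled per group. The share of its marks over all unigenes was not taken, so these counts do not set the members apart from other unigenes.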

How the data were processed

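Leaf RNA was read by BGISEQ-500 sequencing, per the labels' protocols, and 3 co-culture and 2 plant alone libraries were analysed. Bowtie2, RSEM and DESeq2 appear with no version in the submitters' processing notes. The authors deposited, per unigene and library, an expected count from RSEM and an FPKM, per the file headers, together with the protein hit. The sources used here do not name the assembler or the strandedness. The authors' deposited table of group comparisons held pooled counts, a log2 ratio and p-values and q-values, per the file headers, and its name points to DEGseq. It was used only where named.

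Unigenes that a library's file did not list were given 0, and expected counts were rounded. Testing used edgeR 4.0.16 in R 4.3.3 (its low-count filter, TMM scaling, quasi-likelihood F tests over all unigenes), adjusted by the Benjamini-Hochberg method at 0.05. Standard errors are the log2 fold change over the square root of F. DESeq2 1.42.0 was the alternative, and missing adjusted p-values stayed missing. Folds against a group at 0 are bounds against 3 counts over that group, and cover counting error only. Per-library medians used log2 of CPM + 0.5. FPKM was used to compare levels between genes and for the sums of leaf markers and role lists. The fitting code was tested on simulated counts.

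Members, lists and tests were chosen with earlier results of these data known. Members were named by rule: the 2 with the highest FPKM per role, every DESeq2 or edgeR call, and the 8 with the smallest edgeR p in each direction among those with a mean of at least 5 CPM. This gave 39, and members outside it were chosen after their values were seen. Alternatives were another scaling, DESeq2, no filter, a replicate block, cluster sums and leaving out each library. DESeq2 without each library was added after seeing the data. Library numbers shared by the groups were not taken to pair them. Sequences of the unigenes were not used here.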

Additional observations from a re-analysis of the deposited data

How the results depend on the processing

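EdgeR called 0 members and 0 unigenes in every alternative edgeR fit, the replicate block included. DESeq2 called 1313 unigenes and 6 members with all libraries, and 2800, 2160, 3051, 3805 and 2890 unigenes and 14, 7, 11, 16 and 21 members without co-culture 1, 2 and 3 and plant alone 2 and 3 in turn (an arm with 1 library is assumed to vary like the other). Of the 6 members, 4 were called in all of those fits. The DESeq2 size factors in edgeR and the fit without a filter moved no role median by as much as 1 SD of that list's medians over the co-culture libraries. With the replicate block the median was 0.33 for EF1A and 0.021 for eIF3, and CL9553.Contig6_zju stood at -0.041. Libraries of the same number deviated with correlations of 0.037 and 0.069. The deviations of the 2 plant alone libraries mirror each other, so these values are not separate checks. The labels do not say whether libraries of the same number share anything else.

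With contigs summed per cluster the median was 0.019 for EF1A and -0.72 for the transcription elongation factor. The cluster's sign was opposite to the contig's for CL7505.Contig1_zju (0.10), CL5591.Contig1_zju (0.29), CL5078.Contig3_zju (-0.12), CL15717.Contig2_zju (-0.20), CL10037.Contig3_zju (-0.17), CL1808.Contig4_zju (-0.002), CL2528.Contig7_zju (-0.23) and CL9553.Contig6_zju (-0.72), since a cluster sum includes contigs that had the other sign. Leaving out 1 library gave these ranges of the median log2 fold change: 0.14 to 0.36 for all members, -0.30 to 0.90 for EF1A, -0.26 to 0.30 for EF1B, 0.48 to 1.36 for EF2, -0.39 to 0.11 for eIF1A, eIF5 with eIF5B, -0.17 to 0.087 for eIF2 and eIF2B, -0.007 to 0.23 for eIF3, -0.15 to 0.24 for the unnumbered initiation factors, 0.14 to 0.73 for the organellar ligases, 0.15 to 0.48 for the other ligases and -0.41 to 0.70 for the transcription elongation factor. The sign of single members also turned, within -0.11 to 0.74 for CL9553.Contig6_zju, -0.19 to 0.45 for CL5078.Contig3_zju, -0.30 to 0.90 for CL7602.Contig1_zju, -0.007 to 0.36 for CL3724.Contig1_zju, -0.22 to 0.32 for CL2478.Contig3_zju, -0.035 to 1.65 for Unigene6387_zju, -0.57 to 0.15 for CL10463.Contig2_zju, -0.52 to 0.42 for Unigene4499_zju, -0.54 to 0.39 for CL3337.Contig6_zju, -0.72 to 0.17 for CL15717.Contig1_zju and -0.51 to 0.19 for Unigene17855_zju. The cause was not tested. Levels under 0.172 CPM rest on fewer than 3 counts in at least 1 library.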
